A study of Mus musculus with 18 samples.

Results

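Tolerized CD4 T cells that had met their Ag in the mouse were compared with tolerized CD4 T cells driven by PMA and a calcium ionophore (PI) in culture. The comparison set 3 libraries of PI-treated cells (TPI) against 3 libraries of Ag-stimulated cells (TAg), which were 6 of 18 libraries in the series. It covered every annotated gene, of which 17240 of 37991 were abundant enough in at least 1 group to be tested. All cells came from Tg4 mice, an H2u strain with a transgenic TCR that recognizes the Ac1-9 peptide of myelin basic protein. The mice were male and female, 6 to 12 weeks old, and were made tolerant with 7 subcutaneous injections of rising doses of the 4Y variant of that peptide, given 3 to 4 days apart. TAg mice received a last injection of 80 µg of 4Y peptide 2 h before they were culled, and T0 mice received PBS at the same time. TPI cells were taken from tolerant mice and cultured for 2 h with 20 ng/ml PMA and 2 µM of the ionophore A23187. CD4 T cells were obtained from spleen by removal of other cells with antibodies, so every library is a bulk population. The series also holds the same 3 conditions for naive Tg4 cells, called N0, NAg and NPI. These libraries were part of the same fit, so they entered the scaling, the filter and the estimate of spread. Their values are given only where the PI against Ag difference was compared between cell states.

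A peptide on an antigen-presenting cell engages the TCR together with CD4 and costimulatory receptors, and the signal then divides into calcium flux with calcineurin and NFAT, diacylglycerol with Ras, ERK and AP-1, and protein kinase C with NF-kB. PMA is a mimic of diacylglycerol that turns on protein kinase C and Ras exchange factors directly, and A23187 lets calcium into the cell, so that PI acts downstream of the TCR, of its proximal kinases and of the dendritic cell. Tolerized T cells are known for weak coupling of the TCR to these later steps. The 2 stimuli were not matched in other ways. Ag acted in the whole animal and PI in a dish, and no library of tolerized cells cultured without PI was analysed here. The effect of PI and the effect of culture and handling therefore cannot be told apart in any value below.

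Total counts per library were 16196386 to 24119489 in TPI, 10919277 to 12600325 in TAg and 11198930 to 11453566 in T0. Values below are normalized counts, which are counts corrected for library size with TMM, listed in the order of replicates 1 to 3 of each group. The precision of the smallest values is set by counting: 3 reads in a library correspond to a normalized count of 2.18 to 3.29 in TPI and 3.07 to 3.58 in TAg, and a ratio or lower bound quoted for such genes covers counting error only. The TMM factors were 0.736 to 0.780 in TPI and 1.05 to 1.06 in TAg. Y-linked genes had 5128 reads or more in 3 of 3 TPI libraries, in 1 of 3 TAg libraries (replicate 3) and in 2 of 3 T0 libraries, and 34 or fewer in the others, so that sex was unevenly spread over the groups. X- and Y-linked genes were left out of the ranked genes for that reason. The labels give no more than the replicate number, and p-values measure the spread between these libraries. Folds always set TPI over TAg, and a log2 fold change (log2FC) is positive when the gene was higher in TPI. All adjusted p-values are Benjamini-Hochberg values of edgeR's quasi-likelihood test over the 17240 genes.

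The markers of the labelled cell type were abundant in every library. Cd4 was at 4870, 5051 and 5540 in T0, 3098, 3307 and 3324 in TAg and 4342, 3879 and 4622 in TPI. The 8 T cell markers summed to 22839, 26050 and 24413 in TAg and to 62777, 59324 and 59556 in TPI, and the 2 CD8 markers to 51 to 106 and 53 to 70. Of the T cell markers, Cd3e was at 3250, 3776 and 3967 in TAg and at 4773, 4328 and 4462 in TPI, and the costimulatory receptor Cd28 made up most of the difference in the sum, going from 2561, 3295 and 2526 to 27999, 26649 and 23455. Reads of other cells were present at low levels, and some of their sums did not stay level between the groups. Markers are counted as higher or lower by the limits for a call given below. Over all genes tested, 12.4% were called higher in TPI than in TAg and 13.1% lower. The 13 neutrophil markers summed to 4012, 2614 and 3693 in T0, 3139, 2933 and 5538 in TAg, and 530, 608 and 852 in TPI, and 11 of them fell in TPI against TAg (median log2FC of -4.01). The 5 megakaryocyte and platelet markers summed to 244 to 438 in TAg and 98 to 109 in TPI, with 1 of 5 lower, and the 5 NK cell markers to 463 to 641 and 175 to 373, with 2 of 5 lower. The erythroid sums overlapped, at 207 to 1810 in TAg and 358 to 564 in TPI, with 0 of 11 called. The 9 B cell markers summed to 705 to 1044 in TAg and 988 to 2002 in TPI with 2 of 9 higher, the 15 macrophage and monocyte markers to 1125 to 1616 and 895 to 1029 with 1 higher and 1 lower, and the 8 dendritic cell markers to 452 to 853 and 749 to 1106 with 1 higher and 1 lower. The macrophage and dendritic cell counts were close to or below the shares over all genes. In bulk RNA fewer cells of a type and less RNA per cell cannot be told apart.

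**Figure D1:**
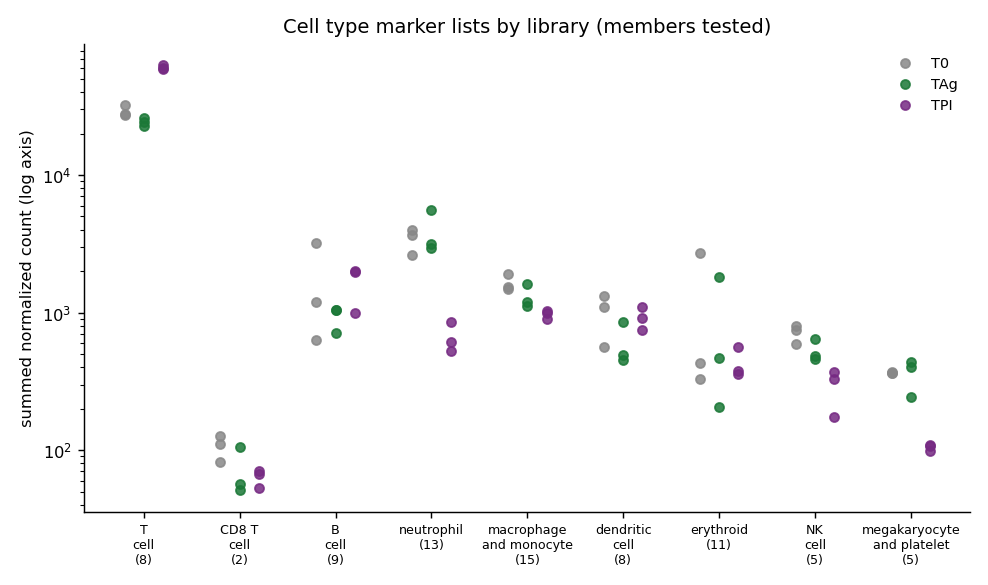
Summed normalized counts (y axis, log scale) of the marker genes of 9 cell types (x axis, members tested in brackets) in each T0 (grey), TAg (green) and TPI (purple) library. The neutrophil and platelet sums of all 3 TPI libraries lie below those of all TAg and T0 libraries, while the T cell sums of TPI lie above both.

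Tolerized cells had different transcriptomes after 2 h in culture with PI and 2 h after the injection of Ag. How long the cells had met Ag within those 2 h was not measured. A gene is written here as called when its adjusted p was below 0.05, it differed by 2-fold or more, and its mean normalized count exceeded 50 in the group where it was higher. In TPI, 2141 genes were called higher than in TAg (12.4% of genes tested) and 2262 lower (13.1%). Without the fold and level limits, 10998 genes (63.8%) had an adjusted p below 0.05, and in 11849 (68.7%) the 3 TPI libraries and the 3 TAg libraries did not overlap at all. The median log2FC over all genes was 0.01. The split into higher and lower depends on the scaling: 48.6% of the called genes were higher with TMM and 50.1% with DESeq2's size factors, but 24.9% (1207 higher, 3639 lower) when libraries were scaled to their totals, which moved the median of all genes by -0.47. Directions given below for gene groups hold under all 3 scalings unless stated.

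Both stimuli were set against the same T0 libraries to divide these genes. In TPI, 2297 genes were called above T0 (13.3%) and 2368 below (13.7%), 27.1% in all, and in TAg 2082 were above (12.1%) and 1944 below (11.3%), 23.4% in all. By adjusted p alone 68.3% of genes differed between TPI and T0 and 59.8% between TAg and T0. Genes activated by PI beyond Ag, meaning called higher in TPI than in T0 and than in TAg, numbered 1237 (7.18%), of which 234 were also raised by Ag and 80 were lowered by Ag. The other 904 genes higher in TPI than in TAg were not called above T0 in TPI, although some exceeded T0 by less than 2-fold. Of these, 631 had been lowered by Ag. On the other side, 959 genes (5.56%) were raised by Ag and were higher in TAg than in TPI. PI raised 358 of them above T0 to a lesser level by adjusted p, and the other 601 (3.49%) were activated by Ag and not by PI, with 81 called lower in TPI than in T0. The remaining 1303 genes lower in TPI than in TAg lay outside the Ag-activated genes, and PI had lowered 904 of them below T0. Because all TPI and TAg responses share the T0 libraries, the responses are placed side by side and no correlation between them is given. A fit of only the libraries with Y-linked reads kept 1 TAg library, so it cannot decide whether sex changed these classes.

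**Figure D2:**
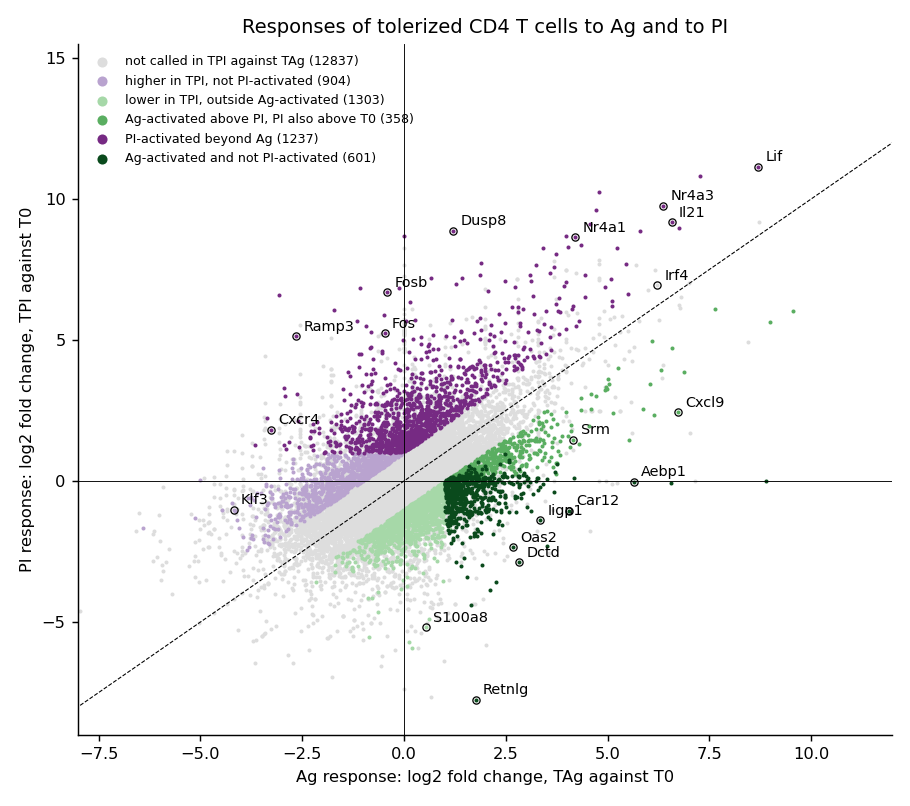
Log2 fold change of every tested gene in TAg against T0 (x axis) and in TPI against T0 (y axis), colored by its class in TPI against TAg with the number of genes in brackets, where the dashed line marks equal responses. Fosb, Fos, Ramp3 and Dusp8 lie above the line at Ag responses near or below 0 or not called, whereas Oas2, Dctd, Iigp1 and Retnlg lie to the right of 0 with PI responses below 0.

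The 1237 genes activated by PI beyond Ag had a median log2FC of 1.91 in size, 230 differed by more than 8-fold, and 1056 were protein coding. Of the 15 largest folds among autosomal genes, 14 are described here, those of Ramp3, Dusp8, Fosb, Plau, Mir23a, Dusp14, Mir24-2, Fos, Emp1, Lmna, Klf4, Arl5c, Gls2 and Il13. Of the 1237 genes, 271 (21.9%) overlap another annotated gene, and since the sources used here do not say whether reads were counted by strand, counts of such genes may include reads of the neighbour.

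Ramp3, which encodes a single-pass protein that partners the calcitonin receptor-like receptor and sets its ligand, ranked first. It was at 61.9, 60.1 and 45.1 in T0, 6.61, 8.35 and 11.3 in TAg, and 1781, 1877 and 2259 in TPI. Ag had lowered it and PI raised it, so that TPI exceeded TAg by a log2FC of 7.79 (SE 0.257, adjusted p = 1.43e-14) and no library of one group came near the other. Dusp8, a phosphatase of the JNK and p38 kinases, was at 3.30, 3.58 and 4.10 in TAg and 796, 740 and 770 in TPI, with a log2FC of 7.66 (SE 0.258, adjusted p = 6.78e-18). Its 2.65, 0 and 1.92 in T0 were at the level of 3 reads, so Dusp8 was barely detected before PI. Ramp3 lies at chr11:6558524-6577478 on the plus strand, where it overlaps Gm11978 by 101 bp on the opposite strand, and Dusp8 at chr7:149265395-149281748 on the minus strand (NCBIM37). Dusp8 overlaps a second annotated entry of the same name by 1186 bp on the same strand.

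The promoters of these first 2 genes are shown because they ranked highest, from 250 bases before to 50 after the start (RefSeq, GRCm38.p6, 5′ to 3′ on the gene's strand). Capitals mark matches to a motif. Ramp3 is at chr11:6658283-6658582, and its capitals are an NF-kB match that begins 51 bases before the start. Dusp8 is at chr7:142095235-142095534, and its capitals are a pair of CRE matches (TGACGTCA, the cAMP and calcium response element bound by CREB and ATF proteins) that begin 107 and 63 bases before the start.
Ramp3: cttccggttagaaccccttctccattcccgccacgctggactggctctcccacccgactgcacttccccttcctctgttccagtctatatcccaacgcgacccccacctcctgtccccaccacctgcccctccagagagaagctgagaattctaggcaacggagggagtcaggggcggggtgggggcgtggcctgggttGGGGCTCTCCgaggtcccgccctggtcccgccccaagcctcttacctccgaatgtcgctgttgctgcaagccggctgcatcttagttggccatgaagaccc
Dusp8: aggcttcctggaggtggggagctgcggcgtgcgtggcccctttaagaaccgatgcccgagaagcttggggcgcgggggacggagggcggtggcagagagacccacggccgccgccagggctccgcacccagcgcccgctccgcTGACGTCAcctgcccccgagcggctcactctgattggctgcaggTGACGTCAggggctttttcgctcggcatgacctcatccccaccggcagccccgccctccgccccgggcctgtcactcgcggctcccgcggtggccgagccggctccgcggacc
Of 32851 promoters of this length, 4.51% hold a match to the NF-kB motif and 1.79% to CRE, counting both strands. The other motifs searched on both strands were AP-1 (TGANTCA), EGR (GCGNGGGCG), E-box (CACGTG), ISRE, the glucocorticoid receptor motif (ACANNNTGT) and the CArG box, and their letters are not in these 2 windows. A match is a stretch of letters and was not tested for binding.

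Counts on 2 miRNA genes of one cluster were among the 15 largest folds. These counts are reads that fall on the hairpin gene in a library of total RNA, not a measure of the mature miRNA. Mir23a (chr8:86732417-86732491, NCBIM37) was at 5.50, 4.77 and 2.05 in TAg and 291, 306 and 311 in TPI, with a log2FC of 6.18 (SE 0.387, adjusted p = 2.73e-12). Mir24-2, downstream of it, had at most 2.20 in any TAg library and 187, 185 and 197 in TPI. With so few TAg reads its size is given by the ratio of counts, and this ratio was 260 with a 95% counting interval of 71.7 to 2150. Mir27a, which lies between them, was looked at after the values of its neighbours were seen: it had 0 counts in every TAg and T0 library and 48.5, 52.7 and 52.3 in TPI, at least 15.4-fold higher. Mir132 and Mir212, chosen in the same way, sit together on chromosome 11. Mir132 was at 1.10, 0 and 0 in TAg and 133, 92.2 and 129 in TPI, with a ratio of 330 (58.9 to 13054), and Mir212 had 0 in all TAg libraries and 107, 85.6 and 107 in TPI, at least 30.1-fold higher. In all, 20 of the 1237 genes were miRNA genes. The share of miRNA genes over all genes tested was not counted, so whether this is many cannot be said.

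The mature sequences of these genes show which seeds are encoded there (RefSeq, GRCm38.p6, 5′ to 3′, with the seed, bases 2 to 8, in capitals). The first 3 come from 1 cluster and have different seeds, while miR-132-3p and miR-212-3p share theirs.
miR-23a-3p: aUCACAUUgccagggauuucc
miR-27a-3p: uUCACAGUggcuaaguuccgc
miR-24-3p: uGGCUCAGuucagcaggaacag
miR-132-3p: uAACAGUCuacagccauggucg
miR-212-3p: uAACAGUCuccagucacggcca

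The AP-1 genes Fosb and Fos stood out for their level as well as for their fold. Fosb was at 1215, 927 and 933 in T0, 856, 645 and 803 in TAg, and 114653, 102802 and 100555 in TPI. TAg and T0 did not differ by the test (log2FC -0.42, adjusted p = 0.56), and TPI exceeded TAg by a log2FC of 7.11 (SE 0.702, adjusted p = 9.62e-07). Fos was at 2096, 1901 and 1893 in T0, 1548, 1353 and 1343 in TAg, and 78727, 73182 and 71373 in TPI, with a log2FC of 5.72 (SE 0.318, adjusted p = 1.56e-09). For both genes the lowest TPI library was far above the highest library of T0 and TAg, and TAg was not called against T0.

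The others span several functions. Dusp14, a further dual-specificity phosphatase, went from 19.8, 17.9 and 26.6 in TAg to 1344, 1127 and 1302 in TPI (log2FC 5.86, SE 0.190, adjusted p = 3.79e-18). Plau, the urokinase plasminogen activator, was at 4.40, 2.38 and 5.12 in TAg and 248, 559 and 613 in TPI, near the level of 3 reads in TAg and far above it in every TPI library. Emp1, a tetraspan membrane protein, was at 101, 85.8 and 100 in TAg and 5045, 4885 and 5063 in TPI. Lmna, which encodes the nuclear lamins A and C, was at 73.8, 54.8 and 105 and 3749, 3701 and 4199. Both were tightly grouped within TPI, with log2FC of 5.70 (SE 0.116, adjusted p = 2.02e-21) and 5.63 (SE 0.193, adjusted p = 1.08e-13). Klf4, a zinc finger factor linked to quiescence, had been lowered by Ag, at 107, 76.3 and 68.6 against 179, 185 and 180 in T0, and was at 4372, 3993 and 3912 in TPI (log2FC 5.61, SE 0.209, adjusted p = 9.68e-13). Arl5c, an ARF-like GTPase, followed the same order, with 878, 906 and 1079 in T0, 95.8, 76.3 and 106 in TAg and 4682, 4426 and 4259 in TPI (log2FC 5.58, SE 0.140, adjusted p = 2.22e-18). Gls2, a mitochondrial glutaminase, had at most 2.05 in any TAg library and 141, 125 and 188 in TPI, a ratio of 141 (95% counting interval 47.9 to 685), and overlaps Spryd4 on the opposite strand. The Th2 cytokine Il13 was at 2.20, 5.96 and 2.05 in TAg and 177, 95.5 and 174 in TPI (log2FC 5.45, SE 0.666, adjusted p = 8.83e-06).

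**Figure D3:**
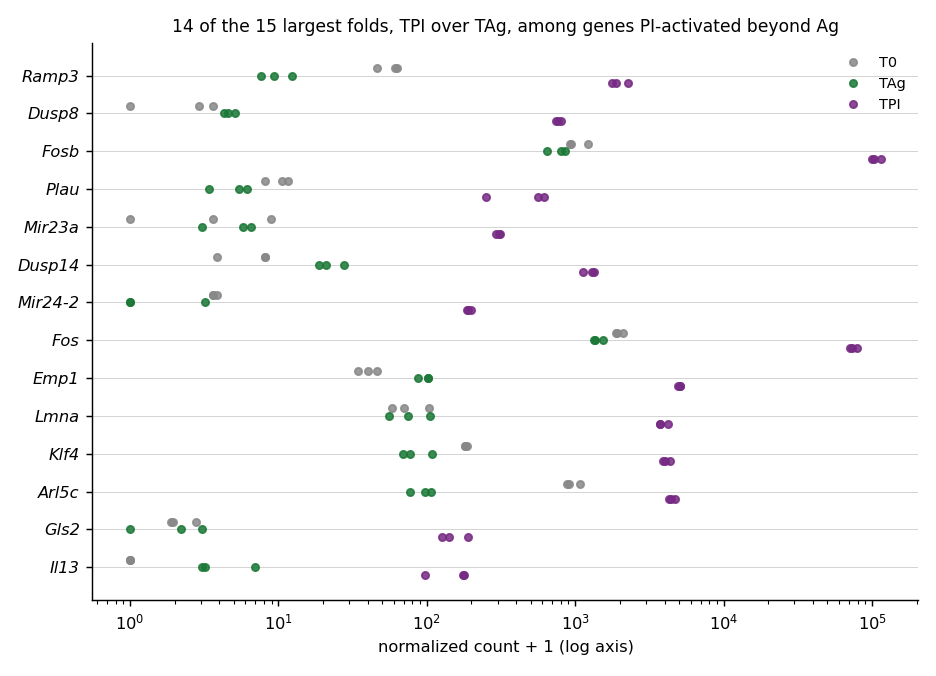
Normalized count plus 1 (x axis, log scale) of 14 of the 15 genes with the largest folds among genes activated by PI beyond Ag (y axis), with 1 point per library of T0 (grey), TAg (green) and TPI (purple). The TPI points of every gene lie to the right of its TAg and T0 points, and Fosb and Fos reach 114653 and 78727.

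The wider families of immediate-early factors moved the same way, including members that Ag had also raised. Of 13 AP-1 and ATF genes tested, 10 were higher in TPI than in TAg and 0 lower, with a median log2FC of 2.15. With library totals 9 were higher and 1 lower. Atf3 went from 60.1, 53.0 and 24.9 in T0 to 597, 546 and 710 in TAg and 13388, 12378 and 11641 in TPI, and Maff from 59.3, 75.1 and 83.4 to 336, 300 and 270 and 8279, 7438 and 7647. Their log2FC of TPI against TAg were 4.33 (SE 0.231, adjusted p = 6.36e-10) and 4.69 (SE 0.186, adjusted p = 3.20e-12). Jun, Junb, Jund, Fosl1, Fosl2 and Atf4 rose by log2FC of 1.08 to 2.32. Batf, the AP-1 factor that pairs with IRF4, was not called, at 1655, 1579 and 1716 in TAg and 1390, 722 and 870 in TPI, a log2FC of -0.73 (SE 0.187).

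Among the 6 EGR and NAB genes 5 were higher and 0 lower, and all 3 NR4A genes were higher. Egr1 was at 467, 516 and 423 in T0, 3707, 4525 and 5127 in TAg and 100064, 94703 and 92582 in TPI (log2FC 4.43, SE 0.129, adjusted p = 7.48e-18). Egr2, a regulator tied to T cell anergy, was at 4292, 4548 and 4762 in TAg and 40285, 37194 and 37082 in TPI (log2FC 3.07), and Egr3 and Egr4 gave log2FC of 3.79 and 3.01. Egr4 missed the threshold with marker scores of other cells as covariates, at a log2FC of 3.27 (adjusted p = 0.0595). The orphan nuclear receptor Nr4a1 was at 495, 495 and 337 in T0, 8668, 6661 and 9303 in TAg and 177496, 175367 and 179226 in TPI (log2FC 4.43, SE 0.274, adjusted p = 3.62e-09). Nr4a2 followed at 2153, 1960 and 1992 in TAg and 40537, 40477 and 38465 in TPI (log2FC 4.29), and Nr4a3 at 13432, 10271 and 15472 and 139003, 132768 and 139378 (log2FC 3.39). Ag itself had raised the 3 NR4A genes by log2FC of 4.02 to 6.37 over T0, and PI raised them by 8.31 to 9.76.

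NF-kB genes were higher in TPI by smaller folds. All 5 subunit genes were called, with a median log2FC of 1.22, and 2 of the 5 with library totals. Rel, the c-Rel subunit needed for Il2 transcription, was at 4919, 4825 and 5574 in TAg and 25041, 24501 and 21994 in TPI (log2FC 2.22, SE 0.088), and Nfkb1 was just at the 2-fold limit. Of the 14 inhibitors and feedback genes of the pathway, 9 were higher and 2 lower. The atypical inhibitor Nfkbid went from 4225, 4027 and 4801 in TAg to 77993, 75423 and 75202 in TPI (log2FC 4.13, SE 0.106, adjusted p = 9.79e-20), and Nfkbiz, Tnfaip3, Nfkbie, Nfkbia and Nfkbib rose by log2FC of 1.79 to 2.42. The 2 lower genes went far in the other direction. Tnip3, an A20-binding inhibitor, was at 29.2, 26.5 and 29.7 in T0, 3502, 3190 and 3416 in TAg and 514, 351 and 378 in TPI (log2FC -3.02, SE 0.160, adjusted p = 2.45e-11), and Bcl3, a nuclear partner of p50 and p52, at 2671, 2433 and 2655 and 569, 427 and 467 (log2FC -2.40). Among 10 NFAT and calcineurin genes 3 were called higher and 0 lower, and this list changed sides with library totals, where 0 were higher and 2 lower. Its calcineurin feedback gene Rcan1 was at 132, 134 and 114 in TAg and 326, 248 and 276 in TPI (log2FC 1.17, and 0.71 with an adjusted p of 0.151 with marker scores of other cells as covariates).

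Feedback genes of the ERK pathway rose broadly. Of 18, 14 were higher in TPI, 1 was lower (Dusp7, log2FC -1.70) and the median log2FC was 2.02. Dusp1 had not responded to Ag and was at 1596, 1724 and 1602 in TAg and 14356, 12649 and 13067 in TPI (log2FC 3.03, SE 0.134). Dusp4, Dusp5, Dusp6 and Dusp16, which Ag had raised, were higher again by log2FC of 2.70, 2.24, 1.09 and 3.53, and Dusp6 missed the threshold with marker scores of other cells as covariates (log2FC 0.74, adjusted p = 0.258). Spry1, a Sprouty inhibitor of Ras signaling, was at 210, 252 and 555 in T0, 7276, 6730 and 7970 in TAg and 62086, 50200 and 47958 in TPI (log2FC 2.87, SE 0.282, adjusted p = 8.23e-07). Dusp10 had been lowered by Ag, to 273, 317 and 192, and reached 2588, 2444 and 2467 in TPI (log2FC 3.27).

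Cytokine genes were among the most distinct. Of 20 tested, 14 were higher in TPI and 1 was lower, with a median log2FC of 3.36, and 8 had been raised by Ag. Il2, the autocrine growth factor of T cells, was at 1.77, 7.07 and 4.80 in T0, 844, 517 and 788 in TAg and 6227, 8577 and 10172 in TPI (log2FC 3.54, SE 0.256, adjusted p = 2.88e-08). Il10, the suppressive cytokine of tolerized Tg4 cells, was at 81.4, 89.2 and 61.4 in T0, 3475, 3094 and 3719 in TAg and 22147, 12100 and 14645 in TPI (log2FC 2.25, SE 0.231, adjusted p = 1.19e-06). Every TPI library held more of both than any TAg library.

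Il21 and Lif, both strongly raised by Ag, rose by log2FC of 2.59 and 2.45, and Ifng by 3.19, from 937, 680 and 1096 to 11261, 6461 and 7066. Cytokines of other T helper lineages appeared with PI. Il17a was at 26.4, 59.6 and 113 in TAg and 1278, 1776 and 2930 in TPI (log2FC 4.89), Il22 at 17.6, 20.3 and 33.8 and 179, 480 and 687 (log2FC 4.21), and Il4 at 4.40, 1.19 and 0 and 64.6, 85.6 and 107 (log2FC 5.45). Csf2, Il6 and Areg gave log2FC of 4.84, 4.49 and 3.90. These genes were low or near the limit of counting in TAg. With marker scores of other cells as covariates Il22 and Il4 missed the threshold at log2FC of 4.74 (adjusted p = 0.0722) and 4.24 (adjusted p = 0.0657). Osm, in contrast, was raised by Ag, at 469, 441 and 515 in TAg, and was at 154, 146 and 202 in TPI (log2FC -1.50, SE 0.133, adjusted p = 4.36e-10).

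Of 12 TNF superfamily ligands 7 were higher and 3 lower. Cd40lg, through which helper T cells license B cells and dendritic cells, lies on the X chromosome and was at 407, 416 and 394 in T0, 340, 246 and 246 in TAg and 9796, 10102 and 10201 in TPI (log2FC 5.18, SE 0.169, adjusted p = 4.47e-14). TAg replicate 3, the TAg library with Y-linked reads, did not differ from replicate 2. Tnf was at 1489, 1165 and 1385 in TAg and 12611, 13928 and 15596 in TPI (log2FC 3.38), and Tnfsf9 and Tnfsf4, the ligands of 4-1BB and OX40, gave 3.36 and 2.65. The lymphotoxins went the other way. Lta was at 69.0, 73.3 and 52.8 in T0, 1714, 993 and 1263 in TAg and 343, 365 and 401 in TPI (log2FC -1.84, SE 0.169), and Ltb fell from 2784, 2776 and 2869 in TAg to 618, 704 and 855 (log2FC -1.95). Among 14 chemokine ligands 6 were higher and 3 lower. The inflammatory chemokines Ccl3 and Ccl4 rose by log2FC of 3.51 and 1.94, and the 3 lower ones are described with the interferon genes.

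Receptors split less cleanly. Of 14 costimulatory and activation receptors, 5 were higher, among them Cd28 (log2FC 3.22, SE 0.130, adjusted p = 1.95e-14), Cd69 (2.74), Cd44 (2.85) and Tnfrsf1b (2.45), and 3 were lower. Tnfrsf9, which encodes 4-1BB, was at 4359, 3494 and 4725 in TAg and 1667, 1369 and 1668 in TPI (log2FC -1.42, SE 0.241, and -1.32 with an adjusted p of 0.152 with marker scores of other cells as covariates), and the transferrin receptor Tfrc at 9584, 9840 and 11125 and 4264, 4165 and 3622 (log2FC -1.34). Icos was at 6341, 7651 and 6450 in TAg and 7691, 6459 and 7032 in TPI, and these overlapped (log2FC 0.05, SE 0.135). Of 14 co-inhibitory receptors 7 were higher and 0 lower, and with library totals 3 higher and 2 lower. Ctla4 was at 8897, 7787 and 9398 in TAg and 44489, 34420 and 36040 in TPI (log2FC 2.14, SE 0.188, adjusted p = 1.13e-07), and Havcr2, which encodes TIM-3, at 231, 229 and 243 and 1559, 1174 and 1483 (log2FC 2.58). Nt5e, which encodes the ectoenzyme CD73, had been lowered by Ag, from 1137, 1270 and 1463 in T0 to 229, 410 and 190, and was at 5011, 5477 and 5130 in TPI (log2FC 4.25). Pdcd1 and Lag3, which Ag had raised by log2FC of 2.59 and 3.26, were not called between PI and Ag, with log2FC of 0.50 (SE 0.161) and -0.33 (SE 0.272).

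Transcription factors linked to tolerance and to T helper lineages also fell into both classes, with 6 of 20 higher and 4 lower. Bcl6, the factor of follicular helper cells, was at 402, 419 and 350 in T0, 214, 258 and 252 in TAg and 2651, 2612 and 2620 in TPI (log2FC 3.45, SE 0.156, adjusted p = 1.11e-12). Bhlhe40, Rora and Nfil3 rose by log2FC of 2.23, 1.94 and 1.52. Maf, an activator of Il10, was at 2094, 3009 and 3240 in T0, 7785, 13596 and 9686 in TAg and 4385, 2515 and 2885 in TPI (log2FC -1.67, SE 0.302, adjusted p = 0.000297), and TPI did not pass the test against T0 (log2FC 0.23, adjusted p = 0.508). With marker scores of other cells as covariates the call between TPI and TAg was lost for Maf (log2FC -0.94, adjusted p = 0.433) and Eomes (log2FC -1.36, adjusted p = 0.101). Irf8 was at 24709, 20087 and 27605 in TAg and 8272, 6450 and 7493 in TPI (log2FC -1.70), and Eomes and Tox2 gave -1.59 and -1.38. Irf4, at 505, 483 and 447 in T0, was raised by both stimuli to 32978, 36779 and 37774 in TAg and 59929, 58037 and 57672 in TPI, a log2FC of 0.71 (SE 0.119, adjusted p = 2.17e-05) that is below the 2-fold limit. Of 11 SOCS and PIM genes only Pim1 was called, at a log2FC of 1.87, and Socs1, raised over T0 by log2FC of 3.61 by Ag and 3.68 by PI, gave a log2FC of 0.07.

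The 601 genes activated by Ag and not by PI had a median log2FC of 1.95 in size, 83 differed by more than 8-fold, 581 were protein coding and 171 (28.5%) overlap another gene. Membership depends on the scaling: with library totals the class had 700 genes, of which 372 were among the 601. The 15 largest folds were those of Retnlg, Mmp8, Aebp1, Dctd, Apol7c, Car12, Oas2, Il1f9, Chi3l1, Iigp1, P2ry13, Saa3, Fpr2, Mgam and Cspg5. They fall into genes of granulocytes or macrophages, genes of the interferon response, and others. Of the marker lists of these cells, 11 of 13 neutrophil markers were called lower in TPI than in TAg, against 13.1% of all genes. Among 15 macrophage and monocyte markers 1 was lower and 1 higher. The granulocyte genes Retnlg and Mmp8 are themselves members of the neutrophil list. Retnlg was at 101, 71.5 and 93.0 in T0, 243, 173 and 481 in TAg and 0, 1.10 and 0 in TPI, and the ratio of summed counts TAg over TPI was 1081 with a 95% counting interval of 194 to 42759. Mmp8, a neutrophil collagenase, was at 173, 116 and 303 in TAg and 1.62, 4.39 and 2.90 in TPI (log2FC -6.06, SE 0.486, adjusted p = 1.24e-09). Il1f9, Chi3l1, P2ry13, Fpr2 and Mgam gave the same order of groups, with the highest TAg library being replicate 3 in each, the TAg library with the highest neutrophil sum (5538). Saa3, an acute-phase gene, was at 0 in every T0 and TPI library and 40.7, 63.2 and 72.7 in TAg, at least 22.4-fold higher in TAg, and missed the threshold with DESeq2 (adjusted p = 0.0714) and with marker scores of other cells as covariates (adjusted p = 0.0995). The part of other cells in these values was not tested. No match to any of the 8 motifs was found in the promoter windows of Retnlg and Mmp8.

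Other genes of the 15 are not on the marker lists. Dctd, which encodes dCMP deaminase of the thymidylate supply, was at 59.3, 48.6 and 65.2 in T0, 429, 395 and 411 in TAg and 8.89, 8.78 and 5.81 in TPI (log2FC -5.72, SE 0.183, adjusted p = 2.86e-18). Ag had raised it and PI had lowered it. Car12, a membrane carbonic anhydrase, was at 78.7, 101 and 86.3 in T0, 1670, 1503 and 1264 in TAg and 41.2, 43.9 and 42.8 in TPI (log2FC -5.11, SE 0.141, adjusted p = 3.02e-19). Aebp1, a transcriptional repressor, was at 290, 294 and 206 in TAg and 4.04, 3.29 and 7.26 in TPI (log2FC -5.66, SE 0.302, adjusted p = 2.90e-14). Cspg5 and Apol7c had log2FC of -4.20 and -5.80. TAg replicate 3, which had the highest neutrophil sum, was the lowest TAg library in Aebp1, Car12 and Cspg5 and the highest in Apol7c.

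Many interferon response genes were lower in TPI. Of 29 on the list, 1 was higher (Gbp3, log2FC 1.57) and 16 were lower, with a median log2FC of -1.36 against 0.01 for all genes. Oas2, a sensor of double-stranded RNA that is among the ranked genes and not on this list, was at 296, 251 and 202 in T0, 1854, 1511 and 1464 in TAg and 42.0, 59.3 and 48.6 in TPI (log2FC -5.02, SE 0.289, adjusted p = 1.35e-09). The immunity-related GTPase Iigp1 was at 421, 559 and 509 in T0, 5082, 4838 and 5175 in TAg and 275, 165 and 126 in TPI (log2FC -4.74, SE 0.352, adjusted p = 4.62e-08). In both genes PI left less RNA than rest.

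The members divide by their response to Ag. The GTPases Gbp2, Gbp5, Gbp6, Igtp and Irgm1, together with Stat2 and Oasl2, were raised by Ag and lower in TPI by log2FC of -1.64 to -3.48. Gbp2, for example, was at 515, 586 and 548 in T0, 4743, 4612 and 4001 in TAg and 651, 560 and 496 in TPI. Ifit1, Ifit2, Ifit3, Usp18, Mx1 and Oas1a had not been raised by Ag and had been lowered by PI, with Ifit2 at 661, 706 and 730 in T0, 430, 428 and 420 in TAg and 92.9, 103 and 102 in TPI. Irf1 was not called, at 11080, 8471 and 10467 in TAg and 10340, 10686 and 9676 in TPI. The CXCR3 ligands, which interferon-γ induces, were lower in TPI although Ifng itself was higher: Cxcl9 was at 658, 528 and 673 in TAg and 43.6, 22.0 and 28.3 in TPI (log2FC -4.28, SE 0.273, adjusted p = 4.46e-10), Cxcl11 gave -3.34 and Cxcl10 -1.12. Some of these calls were marginal. Ifit3 missed an adjusted p of 0.05 with any 1 TPI or TAg library left out (0.0543 to 0.132). It also missed it without the filter on low counts (0.064) and when thinned to the smallest total (0.0676). Mx1 missed it without TPI replicate 1 (0.0576), TPI replicate 3 (0.0640) or TAg replicate 3 (0.103), and Cxcl10 without TAg replicate 3 (0.0551). With marker scores of other cells as covariates Ifit1 (log2FC -1.69, adjusted p = 0.185) and Usp18 (-1.50, 0.0616) missed the threshold, Mx1 (-0.21, 0.904) and Oas1a (-0.07, 0.912) were near 0, and Ifit3 (0.49, 0.762) and Cxcl10 (0.57, 0.419) changed sign.

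**Figure D4:**
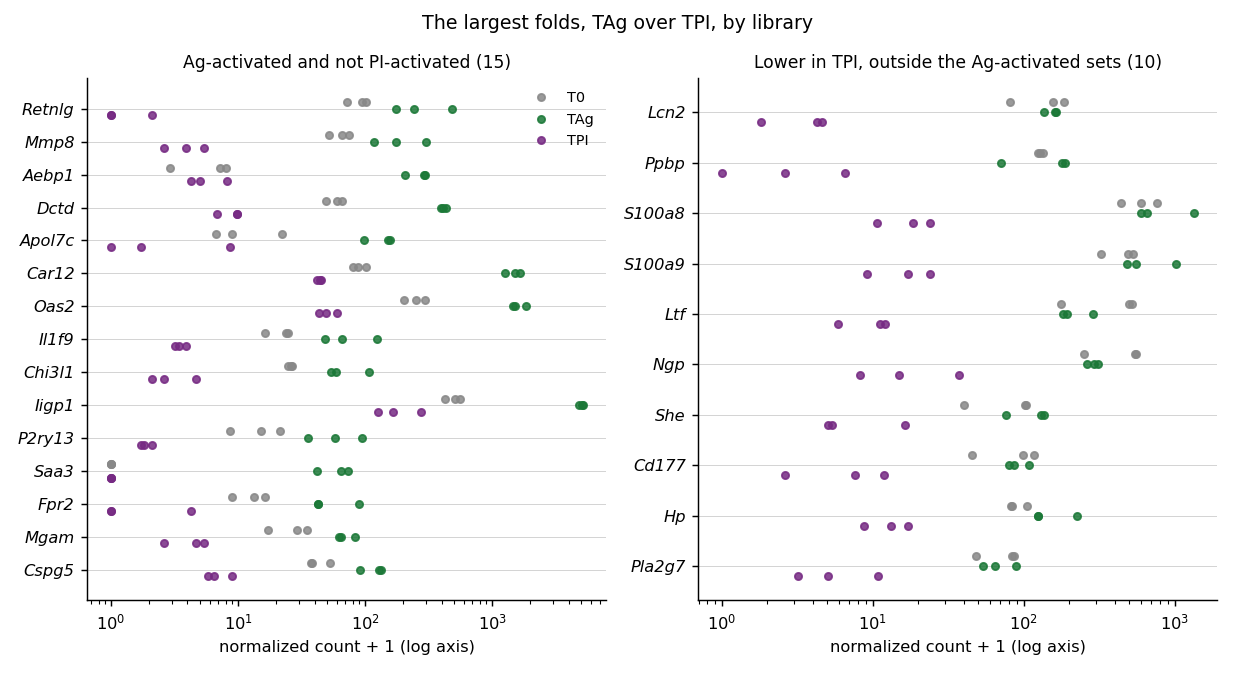
Normalized count plus 1 (x axes, log scale) by library in T0 (grey), TAg (green) and TPI (purple), for the 15 largest folds of TAg over TPI among genes activated by Ag and not PI (left) and the 10 largest outside the Ag-activated genes (right). TPI points lie left of TAg points in every gene, and in the right panel the TAg and T0 ranges overlap for all genes but Hp.

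Growth genes were activated by both stimuli and further by Ag. Of 22 genes of MYC and ribosome biogenesis, all 22 were called above T0 in TAg and 18 in TPI. Between the stimuli 15 were lower in TPI and 1 was higher, with a median log2FC of -1.23, and the counts were 13 and 1 with DESeq2's size factors and 18 and 0 with library totals. Myc itself was not called, at 589, 647 and 652 in T0, 16014, 14819 and 16520 in TAg and 25321, 19973 and 18947 in TPI (log2FC 0.44, SE 0.094, and -0.03 with library totals). Polr1b, a subunit of RNA polymerase I, was at 493, 500 and 464 in T0, 6037, 5833 and 5954 in TAg and 875, 853 and 895 in TPI (log2FC -2.76, SE 0.063, adjusted p = 1.62e-20). Srm, spermidine synthase, was at 3129, 2987 and 3121 in TAg and 474, 470 and 482 in TPI (log2FC -2.69, SE 0.090, adjusted p = 6.08e-18), while Odc1, the enzyme before it in polyamine synthesis, was higher in TPI (log2FC 1.04). Dkc1, the pseudouridine synthase dyskerin, was X-linked and the member activated by Ag and not PI, at 560, 518 and 556 in T0, 4275, 4128 and 4227 in TAg and 517, 574 and 491 in TPI (log2FC -3.00).

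Metabolic genes gave mixed results. Among 16 glycolysis genes 5 were lower and 1 higher. Hk2, the inducible hexokinase, was at 126, 133 and 144 in T0, 4268, 4144 and 4212 in TAg and 1562, 1103 and 1376 in TPI (log2FC -1.64), and Ldha gave -1.17. Of 16 genes of amino acid transport and the ATF4 response, 7 were higher and 4 lower, and with library totals 2 and 6. The amino acid transporters Slc7a5 and Slc1a5 were lower (log2FC -1.53 and -1.62), and Slc38a2 and the stress gene Sesn2 higher (2.03 and 2.86). Among 11 heat shock genes 3 were lower and 1 higher, the mitochondrial chaperone genes Hspd1 and Hspe1, which share a promoter and overlap, being activated by Ag and not PI (log2FC -2.81 and -2.05). In cholesterol synthesis 4 of 15 were higher and 2 lower, with 0 and 3 by library totals. In the BCL2 family the proapoptotic genes separated: Pmaip1 and Bcl2l11, which encode NOXA and BIM, were higher in TPI (log2FC 2.81 and 1.65), and Bid and Bax, activated by Ag and not PI, were lower (-2.39 and -1.25). In all, 3 of 12 were higher and 2 lower, and 2 and 4 by library totals.

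**Figure D5:**
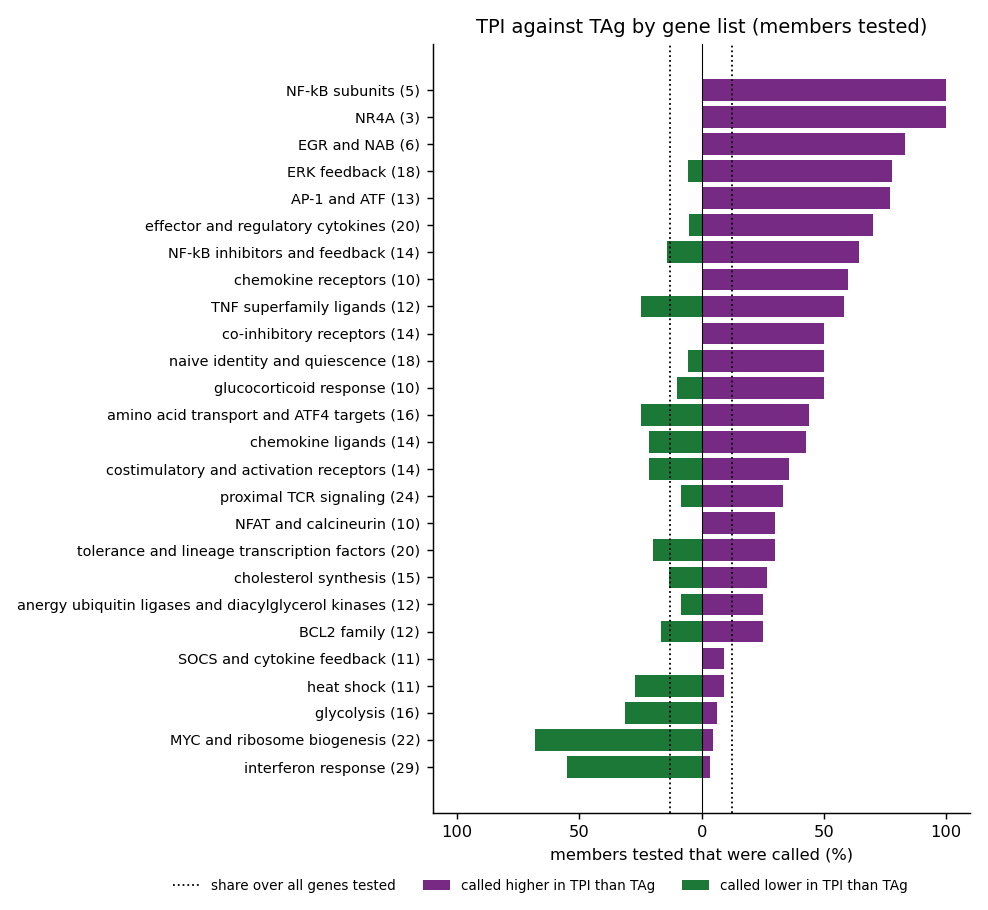
Share of the tested members of each of 26 gene lists (number tested in brackets) that were called higher (purple, to the right) or lower (green, to the left) in TPI than in TAg, in percent, with dotted lines at the shares over all tested genes, 12.4% higher and 13.1% lower. The NF-kB subunit, NR4A, EGR, ERK feedback and AP-1 lists extend to the right, and the ribosome biogenesis and interferon lists to the left.

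A further class consisted of genes that Ag lowered and PI did not, or lowered less. Of the 904 genes higher in TPI than in TAg and not called above T0, 631 were called below T0 in TAg. Genes of naive identity and quiescence had 9 of 18 higher and 1 lower (Bach2, log2FC -1.10), and 12 of the 18 had been lowered by Ag against 6 by PI. Of the 9, 4 were called above T0 in TPI and so belong to the genes activated by PI beyond Ag, not to this class. Klf3 was at 1695, 1751 and 2133 in T0, 85.9, 90.6 and 128 in TAg and 876, 926 and 946 in TPI (log2FC 3.16, SE 0.170, adjusted p = 1.76e-11). Foxo1, which maintains quiescence and homing genes, was at 5333, 5600 and 5313 in T0, 1729, 1663 and 1466 in TAg and 8137, 8315 and 8266 in TPI (log2FC 2.35, SE 0.093, adjusted p = 1.18e-16). The antiproliferative genes Tob1 and Btg2 and the homing receptor Ccr7 were above T0 in TPI (log2FC against TAg of 3.70, 3.21 and 3.40).

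Among 10 chemokine receptors 6 were higher and 0 lower. Cxcr4, the receptor that holds lymphocytes in bone marrow, was at 1237, 1094 and 2776 in T0, 172, 235 and 130 in TAg and 5838, 6222 and 5865 in TPI (log2FC 5.07, SE 0.497, adjusted p = 8.85e-07). Cxcr4 also counts among 10 glucocorticoid-responsive genes, of which 5 were higher and 1 was lower, and the list's members disagreed: Per1 was higher (log2FC 2.54), Fkbp5 lower (-1.30), and Tsc22d3 not called. T0 replicate 3 was above the other T0 libraries and below every TPI library.

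Of 24 genes of proximal TCR signaling, 8 were higher and 2 lower, and with library totals 5 and 4. Ag had lowered 3 of the 24, against 11.3% of all genes. Plcg1, the phospholipase that makes diacylglycerol, was at 5498, 5682 and 6453 in T0, 1768, 1856 and 1543 in TAg and 9093, 9039 and 8736 in TPI (log2FC 2.38, SE 0.078, adjusted p = 4.61e-18). Dgka, the kinase that removes diacylglycerol and is linked to anergy, was at 14668, 14792 and 17845, then 3719, 4484 and 3104, and then 14454, 13952 and 13629 (log2FC 1.89, SE 0.118, adjusted p = 6.54e-12). Ag lowered Dgka, and TPI did not pass the test against T0 (log2FC -0.17, adjusted p = 0.191). Rasgrp1, the diacylglycerol-responsive activator of Ras, and the phosphatase gene Ptpn22 were raised above T0 by PI and differed from TAg by log2FC of 2.11 and 2.59. The list of anergy ubiquitin ligases and diacylglycerol kinases, which includes Dgka, had 3 of 12 higher and 1 lower. Cblb, the ligase required for anergy, was raised by both stimuli, at 4130, 4402 and 5075 in T0, 13153, 11712 and 11162 in TAg and 15876, 14106 and 13348 in TPI, and was not called between them (log2FC 0.27, SE 0.095).

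Outside the Ag-activated genes, the 10 largest falls in TPI against TAg were Lcn2, Ppbp, S100a8, S100a9, Ltf, Ngp, She, Cd177, Hp and Pla2g7. Of these, 5 (Lcn2, S100a8, S100a9, Ltf and Ngp) are on the neutrophil list and Ppbp, platelet basic protein, on the platelet list. S100a8, a subunit of calprotectin, was at 760, 440 and 599 in T0, 651, 602 and 1340 in TAg and 9.69, 23.0 and 17.4 in TPI (log2FC -5.72, SE 0.510, adjusted p = 2.89e-07). Lcn2 was at 155, 80.4 and 184 in T0, 160, 136 and 163 in TAg and 0.808, 3.29 and 3.63 in TPI (log2FC -5.84, SE 0.482, adjusted p = 1.87e-09). Neither gene had responded to Ag. Ltf, Ngp, Ppbp and Pla2g7 kept their direction but missed an adjusted p of 0.05 when summed marker levels of other cells were covariates. Ltf and Ngp are themselves among the markers summed, and the neutrophil sums differed between TPI and TAg. These losses therefore cannot show how much of a fall came from other cells. The part of neutrophils and platelets in these falls was not tested. In the promoter windows of the first 2, Lcn2 has a match to the glucocorticoid receptor motif 152 bases before its start (in 6.85% of promoters) and Ppbp to AP-1 and the CArG box, 204 and 87 bases before its start (7.81% and 1.63%).

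The same comparison in naive cells served to show where tolerized cells differ. The difference between PI and Ag was tested against that between NPI and NAg as an interaction, which called 2058 genes (11.9% of those tested). A call here needed an adjusted p under 0.05, a difference of at least 1 on the log2 scale and a mean above 50 in at least 1 group. Y-linked reads were 5624 to 7873 in the 3 NPI libraries and 16 to 35 in the 3 NAg libraries. Sex and stimulus therefore cannot be told apart in the naive cells, and the interaction carries this limit. Of the 1237 genes activated by PI beyond Ag in tolerized cells, 403 (32.6%) were called, with the difference larger in tolerized cells for 381 and smaller for 22. Of the 601 activated by Ag and not PI, 37 (6.16%) were called. Membership of both classes was set by the tolerized side of this contrast, so these counts are a description. Ramp3 was at 443, 388 and 242 in NAg and 1444, 1664 and 1484 in NPI, and the excess in tolerized cells was 5.69 on the log2 scale (SE 0.328, adjusted p = 5.92e-10). Ramp3 was lower in every TAg library than in any NAg library, and higher in every TPI library than in any NPI library. Fosb, Fos, Klf4, Plau, Dctd and Car12, by contrast, gave adjusted p-values of 0.10 or more for this difference, at estimates of 0.67, -0.31, 0.47, -0.81, -0.79 and -0.18. Oas2, at 1206, 821 and 1299 in NAg and 306, 435 and 469 in NPI, had a fall of 1.46 on the log2 scale in naive cells against the fall of 5.02 in tolerized cells (difference -3.57, SE 0.369, adjusted p = 3.63e-06). The neutrophil marker sum was 269 to 570 in NAg and 177 to 269 in NPI, well below the T0 and TAg sums.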

How the data were processed

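RNA-seq of CD4 T cells from spleen of Tg4 mice was analysed for TPI, TAg and T0 (3 libraries each), with N0, NAg and NPI in the same fit. RNA was depleted of rRNA. The authors aligned paired reads to mm9 (NCBIM37) with TopHat2 2.1.1 and counted them per Ensembl gene with HTSeq 0.9.1, per the labels and methods, and the deposited values are raw counts without normalization. The handling of strand and overlapping genes is not given in the sources used here, nor whether a library is 1 mouse. The submitters' notes also name DESeq2 1.18 and edgeR 3.24. Of 37991 genes, 37205 were matched by identifier to an NCBIM37 annotation for symbols, positions and overlaps.

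Counts were tested with edgeR 4.0.16 in R 4.3.3: TMM scaling, 6 group means over 18 libraries, robust quasi-likelihood F test and Benjamini-Hochberg adjustment. Genes averaging at least 3 normalized counts in at least 1 group were kept. The thresholds for calls (adjusted p 0.05, 2-fold, mean above 50) are those of the study. SE is the log2FC divided by the square root of F. A group with 0 counts was set to 3 counts per library for a lower bound, and a group with 1 to 3 counts in all gives a ratio with an exact 95% interval. Where replicates were left out the remaining ones were assumed to vary alike.

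Ranked genes were autosomal called genes with a symbol and no overlap between TPI and TAg libraries: the 15 largest folds of genes activated by PI beyond Ag, the 15 largest of genes activated by Ag and not PI, and the 10 largest other falls. Members of 26 pathway and 9 marker lists were also named, X-linked, uncalled and overlapping ones included. The class "not PI" excludes genes with an adjusted p under 0.05 above T0 in TPI. A few of these genes are not reported here. Members and lists were chosen with earlier results of these data known. Genes with close copies or pseudogenes (glycolysis, heat shock, Ifit and Gbp genes) may share reads. Alternatives were DESeq2 1.42.0, its size factors, library totals, no filter, no fold or level minimum, the groups compared alone, a replicate block, Y-linked reads or marker scores as covariates, thinning, and left-out libraries. The marker scores were summed log2 levels of the erythroid list, of the macrophage, monocyte and neutrophil markers, and of the B cell list. They held no platelet or NK cell markers. Because neutrophil markers differed between TPI and TAg, a call lost with these covariates cannot be assigned to other cells. Simulated data for TPI against TAg (14238 genes, dispersion fixed at 0.05) were judged by an adjusted p under 0.05 alone, without the fold and level limits of a call. By this, 35 of 100 genes changed by 1 and 99 of 100 changed by 2 on the log2 scale were found in the right direction. Of 14038 unchanged genes, 6 passed.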

Additional observations from a re-analysis of the deposited data

Results flagged for a closer look

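For 15 of the ranked genes the PI against Ag difference in tolerized cells was called different from that in naive cells by the interaction test. A call needed a Benjamini-Hochberg adjusted p under 0.05 in edgeR's quasi-likelihood test and a difference of at least 1 on the log2 scale. Emp1 passed the same test with a smaller difference of 0.91 (adjusted p = 0.000242) and is not among the 15. Values are the tolerized minus the naive log2 difference. Among genes activated by PI beyond Ag it was larger in tolerized cells for Ramp3 (5.69), Gls2 (5.24), Mir24-2 (3.35), Dusp14 (2.08), Dusp8 (1.64), Arl5c (1.51) and Lmna (1.30), and those of Gls2 and Mir24-2 rest on few TAg reads. Among genes lower in TPI it was more negative in tolerized cells for Oas2 (-3.57), Il1f9 (-3.48), Cd177 (-3.32), Mgam (-2.88), Aebp1 (-2.21), Hp (-2.12), She (-1.91) and Iigp1 (-1.45). Il1f9, Cd177, Mgam and Hp were at 19.8 or less in every NAg library, and the neutrophil marker sum was 2933 to 5538 in TAg and 269 to 570 in NAg. The part of other cells in these differences was not tested. All NPI libraries and no NAg library had the high Y-linked reads, so the naive side also differs in sex.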

How the results depend on the processing

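Of the processing alternatives, library totals and the minimum fold change moved a count of called genes by more than 1.5 times. With library totals in place of TMM, 1207 genes were higher and 3639 lower in TPI than TAg, and 585 were activated by PI beyond Ag. The other classes changed more in their members than in their counts. By library totals 700 genes were activated by Ag and not PI, of which 372 were among the 601 reported. Ag above PI had 931 genes, of which 726 were among the 959 reported. Without the minimum fold change, 4267 genes were higher and 4452 lower, 2778 were activated by PI beyond Ag, 1713 by Ag and not PI, and 2708 by Ag above PI, and 5783 differed between cell states. With a replicate block there were 2136 higher and 2262 lower genes. Deviations from the group means in libraries of equal replicate number gave correlations of -0.011, -0.024 and 0.156 for TPI with TAg. The correlations were -0.2878, 0.0117 and -0.1854 for TPI with T0, and -0.166, -0.250 and -0.486 for TAg with T0. With 3 libraries per group these values cannot decide whether the numbers pair the libraries. Leaving out 1 library gave 2090 to 2169 higher and 2225 to 2299 lower genes, 1212 to 1248 activated by PI beyond Ag, 587 to 620 by Ag and not PI, 909 to 976 by Ag above PI and 1930 to 2179 that differed between cell states. DESeq2 gave 2203 higher and 2191 lower. With only the libraries that had Y-linked reads, an alternative chosen after seeing the data that leaves 1 TAg library, assumed to vary like the others, 2183 genes were higher and 2412 lower. A few named genes changed sign, most of them near 0 as reported. With library totals Cblb gave a log2FC of -0.20, Cd3e -0.17, Icos -0.42, Irf1 -0.44, Myc -0.03 and Socs1 -0.40. With marker scores of other cells as covariates Cxcl10 gave 0.57, Ifit3 0.49 and Lag3 0.40. Irf1 gave -0.01 when thinned and -0.04 with only the libraries that had Y-linked reads. With 1 library left out Icos ranged from -0.00 to 0.14 and Irf1 from -0.07 to 0.13. Over 170 ranked or named genes, 2655 of 2720 values under an alternative kept their direction and their side of the threshold, 46 no longer passed it, 5 newly passed it and 14 changed sign. The cause was not tested.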
